A study of Mus musculus with 2 samples.

Results

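The replication-dependent histone genes of the mouse were examined in 2 lists of ATAC-seq peaks from the organ of Corti, the sensory epithelium of the cochlea. They were taken as the protein-coding genes of GENCODE vM21 (GRCm38) whose symbol begins with Hist1h, Hist2h, Hist3h or Hist4h, which gave 67 of 21938 genes. ATAC-seq reads mark DNA that the Tn5 transposase could reach, and a peak is an interval where such reads exceed the local background. One list came from WT mice and the other from Bmi1-/- littermates at P2, the latter labelled Bmi1 KO. The Bmi1tm1Brn allele, which knocks the gene out in the whole animal and not in a chosen cell type, had been crossed onto C57BL/6J. Each list came from 1 library of pooled mice, so that no spread between animals is known and no test between genotypes was made. Every peak name in the list of the WT sample began with bko, and every one in the list of the Bmi1 KO sample began with bwt. Neither the labels nor the study's methods resolve this, and the lists are therefore called the WT-labelled and the KO-labelled list.

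Replication-dependent histone genes supply the H1, H2A, H2B, H3 and H4 proteins that package newly copied DNA, and most are transcribed only in S phase. They lie in clusters, lack introns, and end their mRNAs in a conserved stem-loop in place of a poly(A) tail. Their transcription and processing take place in the histone locus body, a nuclear body organised by NPAT, and the stem-loop is bound by SLBP. Bmi1 is a subunit of polycomb repressive complex 1, which maintains the repressed state of many genes, and in the newborn organ of Corti hair cells and supporting cells have largely left the cell cycle.

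The members fell into the Hist1 cluster on chromosome 13 with 54 genes, the Hist2 cluster on chromosome 3 with 10, the Hist3 cluster on chromosome 11 with 2 and Hist4h4 on chromosome 6. There were 6 H1, 18 H2A, 18 H2B, 12 H3 and 13 H4 genes. The stem-loop consensus was found in 63 of the 67 genes or the 200 bp beside them, and not in Hist1h2an, Hist2h2be, Hist1h3g and Hist1h4a. The Hist1 genes formed 4 blocks separated by more than 100 kb, with 18, 5, 29 and 2 genes. The last block held Hist1h2ba and Hist1h2aa, which like the linker histone gene Hist1h1t are known from testis.

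The promoters of 6 members are given first, because they show the elements that set the histone types apart and the windows in which peaks were or were not found. They are the member of each type with the strongest peak in the KO-labelled list, and Hist2h3c2, the first member by position with no peak in either list. Each is the RefSeq promoter of GRCm38.p6, from 250 bases before the transcription start site (TSS) to 50 after it, written 5′ to 3′ on the strand of the gene. Capitals mark matches, on either strand, to the CCAAT box (CCAAT), the TATA box (TATAAA), the octamer ATTTGCAT, the H1 box (AAACACA) and the H4 element bound by HINFP (GGTCCG).
Hist1h1e: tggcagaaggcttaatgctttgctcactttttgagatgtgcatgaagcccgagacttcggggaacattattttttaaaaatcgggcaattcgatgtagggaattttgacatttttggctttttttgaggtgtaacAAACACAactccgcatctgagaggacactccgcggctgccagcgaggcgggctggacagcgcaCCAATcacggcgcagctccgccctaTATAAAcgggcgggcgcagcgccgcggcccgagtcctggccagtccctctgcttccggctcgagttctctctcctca
Hist1h2ac: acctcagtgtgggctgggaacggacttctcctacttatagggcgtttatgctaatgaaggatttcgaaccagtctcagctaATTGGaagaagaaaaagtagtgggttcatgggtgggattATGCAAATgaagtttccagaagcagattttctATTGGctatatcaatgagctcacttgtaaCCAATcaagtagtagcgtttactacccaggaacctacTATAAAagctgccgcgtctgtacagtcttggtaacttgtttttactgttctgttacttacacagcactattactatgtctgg
Hist1h2bb: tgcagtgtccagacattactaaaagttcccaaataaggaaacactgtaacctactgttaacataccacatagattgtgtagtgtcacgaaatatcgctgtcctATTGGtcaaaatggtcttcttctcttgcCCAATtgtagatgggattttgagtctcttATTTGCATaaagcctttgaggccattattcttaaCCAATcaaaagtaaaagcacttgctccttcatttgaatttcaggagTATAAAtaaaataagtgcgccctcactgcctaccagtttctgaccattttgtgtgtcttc
Hist1h3c: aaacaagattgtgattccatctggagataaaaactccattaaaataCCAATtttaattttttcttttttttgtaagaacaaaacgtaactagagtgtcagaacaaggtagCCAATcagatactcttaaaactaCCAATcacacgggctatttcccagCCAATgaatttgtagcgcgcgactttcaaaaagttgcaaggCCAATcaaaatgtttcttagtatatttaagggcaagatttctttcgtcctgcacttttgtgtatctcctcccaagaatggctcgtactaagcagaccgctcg
Hist1h4h: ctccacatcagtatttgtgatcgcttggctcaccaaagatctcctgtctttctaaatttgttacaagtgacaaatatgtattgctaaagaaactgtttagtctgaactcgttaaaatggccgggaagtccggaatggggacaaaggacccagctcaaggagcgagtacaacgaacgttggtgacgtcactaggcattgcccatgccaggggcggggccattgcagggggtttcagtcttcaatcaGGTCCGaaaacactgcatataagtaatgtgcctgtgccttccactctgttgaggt
Hist2h3c2: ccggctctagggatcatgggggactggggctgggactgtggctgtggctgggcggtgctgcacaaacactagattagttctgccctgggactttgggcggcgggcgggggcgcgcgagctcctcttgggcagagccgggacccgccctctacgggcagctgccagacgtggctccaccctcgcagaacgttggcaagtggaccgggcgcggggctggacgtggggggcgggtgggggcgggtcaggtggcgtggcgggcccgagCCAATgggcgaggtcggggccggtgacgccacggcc
The windows are chr13:23622509-23622808 on the minus strand for Hist1h1e, chr13:23683910-23684209 on the minus strand for Hist1h2ac, chr13:23746484-23746783 on the plus strand for Hist1h2bb, chr13:23745472-23745771 on the minus strand for Hist1h3c, chr13:23530794-23531093 on the plus strand for Hist1h4h and chr3:96239078-96239377 on the minus strand for Hist2h3c2. A peak of both lists reached into the window of Hist1h2ac, and peaks of the KO-labelled list alone reached into those of Hist1h2bb and Hist1h4h. No peak reached into the windows of Hist1h1e, Hist1h3c or Hist2h3c2. The RefSeq start used for Hist1h3c lies 81 bp from the GENCODE TSS, against 11 bp for Hist1h2ac, 6 bp for Hist1h4h and 0 bp for the other windows.

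The promoter table held 62 of the 67 members and 27025 genes in all. A CCAAT box was found in 53 of the 62 member promoters (85.5%), against 37.9% of all promoters, in every H1, H2A, H2B and H3 promoter of the table and in 3 of 12 H4 promoters. The GGTCCG element was found in 11 of 12 H4 promoters, in 1 H2B and 1 H3 promoter, and in 8.39% of all promoters. The octamer, which POU2F1 recognises, was found in 7 of 18 H2A and 6 of 16 H2B promoters, in no H1, H3 or H4 promoter, and in 1.75% of all promoters. The windows of some neighbouring H2A and H2B genes overlap, such as Hist1h2ah and Hist1h2bk. A match there can count under both types, so these are not all separate stretches of DNA. The H1 box was present in 5 of 6 H1 promoters and in 7.14% of all promoters, and the TATA box in 35 of 62 members (56.5%) and 14.2% of all promoters. The median GC content of the member promoters was 45.3%, against 52.7% over all promoters, and the median number of CpG dinucleotides was 11, against 7.

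The WT-labelled list held 77596 peaks and the KO-labelled list 100431, from chromosomes 1 to 19, X and Y. The lists contain no read totals, and the depth is known only from the reads at each summit and the local background, which were recovered by solving the fold enrichment and −log10 p of the summit together. Background was most often 6.32 reads in the WT-labelled list and 8.04 reads in the other. At these backgrounds the weakest listed peak had 13 reads in the former and 15 in the latter. By this measure the KO-labelled library was the deeper of the 2, and the part of depth in the differences between the lists was not tested. Bmi1 itself had 1 promoter peak in the WT-labelled list, at the 40.1st percentile of its list, and 4 in the KO-labelled list, the strongest at the 92.0th, which does not check the labels. Promoter peaks were present at 5 and 6 of 6 hair cell marker genes, at 5 of 6 supporting cell and 2 of 2 epithelial marker genes in both lists, at 3 and 2 of 4 neuronal, 1 and 1 of 3 mesenchymal and 0 and 0 of 3 blood marker genes (WT-labelled and KO-labelled, respectively).

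Histone genes had fewer promoter peaks than protein-coding genes as a whole, most clearly in the WT-labelled list. A promoter peak was one whose centre lay within 1 kb of a TSS of the gene. Such a peak was present at 10 of 67 histone genes in the WT-labelled list (14.9%, 95% exact binomial interval 7.40 to 25.7%), against 49% of all protein-coding genes. In the KO-labelled list it was present at 31 of 67 (46.3%, interval 34 to 58.9%), against 60.4%. Without the 10 members of recurring sequence described below, the KO-labelled share was 52.6%, and its interval (39.0 to 66%) included 60.4%. No such filter was applied to the share of all genes. The intervals cover counting error only, and they are too narrow, because neighbouring histone genes shared peaks. In pooled tissue, more cells of a type and more accessible DNA per cell cannot be told apart.

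Most histone genes with a peak had it only in the KO-labelled list. Of the 67 genes, 24 (35.8%, interval 24.5 to 48.5%) had a promoter peak in that list only, against 17% of all protein-coding genes. When a −log10 q of at least 1.3 was required of a peak, 19 genes (28.4%) had one in that list only, against 20.9%. When it had to be 5 or more, the order was reversed, with 2 genes (2.99%) against 13.9%. Both lists had one at 7 genes (10.4%, interval 4.30 to 20.3%), against 43.4%. The WT-labelled list alone had one at 3 genes (4.48%, interval 0.933 to 12.5%), against 5.68%, which is close to the background. With a window of 3 kb in place of 1 kb, that share was 14.9% against 6.10%. Neither list had one at 33 genes (49.3%, interval 36.8 to 61.8%), against 34%. When peaks were placed by their percentile within their own list by −log10 p, 6 of the 7 genes with a peak in both lists had the higher percentile in the KO-labelled one, against 68.8% of all protein-coding genes with a peak in both. With a gene that lacked a peak in a list placed below those with one, 30 of the 34 genes with a peak in either list stood higher in the KO-labelled one, against 70.9% of all such genes. Of these 30, 24 are the genes with a peak in that list only, so that this count largely restates the one above.

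**Figure D1:**
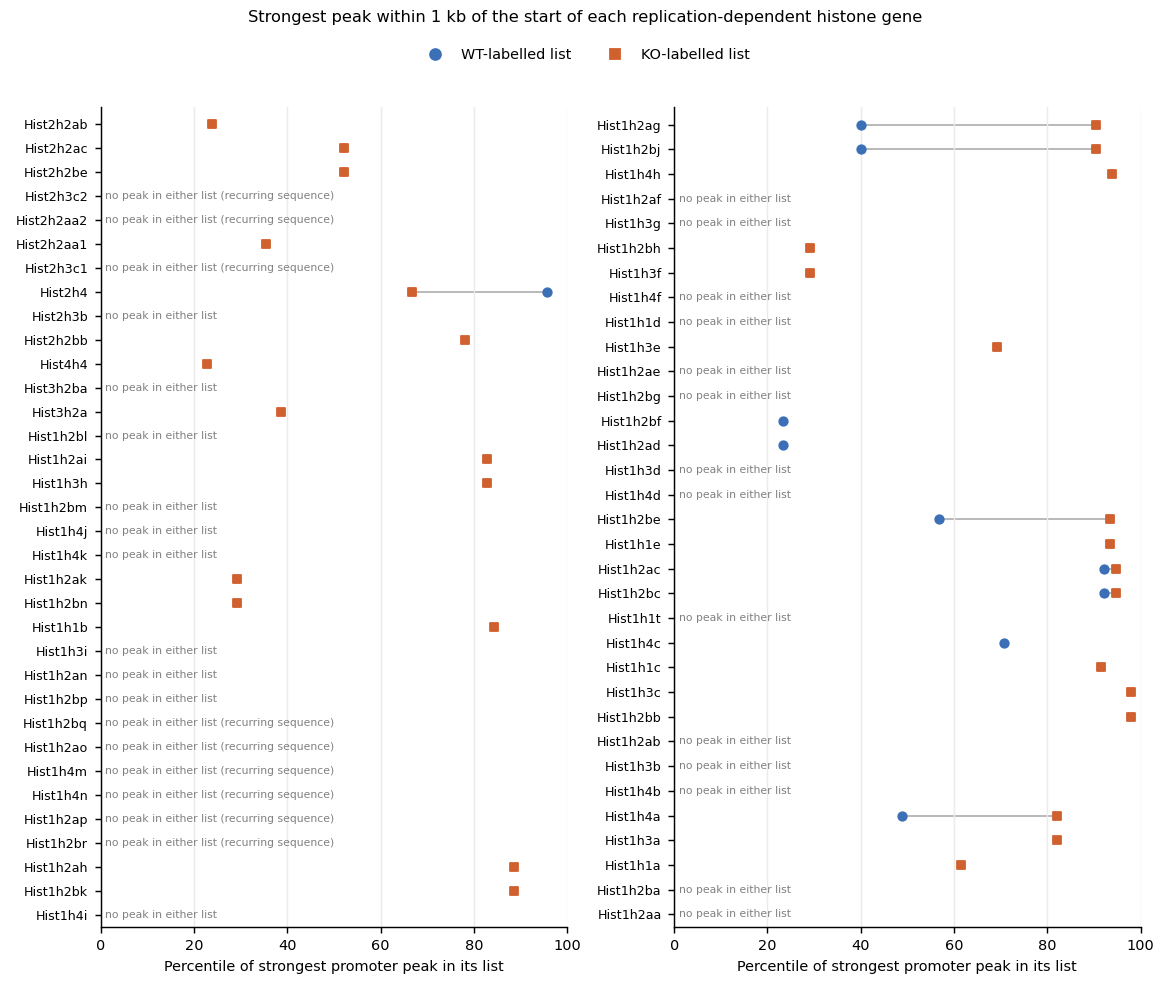
Percentile, within its own list by −log10 p, of the strongest peak with its centre within 1 kb of the start of each of the 67 histone genes, for the WT-labelled list (blue circles) and the KO-labelled list (orange squares). Grey lines join the values of the 7 genes with a peak in both lists, and of these only Hist2h4 was higher in the WT-labelled list.

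The 10 genes with a peak in the WT-labelled list shared 7 distinct peaks. The strongest was at Hist2h4, a core histone H4 gene, at chr3:96262938-96263332. It had 24 reads at its summit, a −log10 p of 7.42 and the 95.7th percentile of its list. In the KO-labelled list the peak that overlapped it, at chr3:96262842-96263376, had 23 reads and the 61.4th percentile, and a further peak in the gene had 24 reads and the 66.7th percentile. Hist2h4 was the only gene with a peak in both lists at which the WT-labelled list ranked higher.

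The peak between Hist1h2ac and Hist1h2bc, a divergent pair of H2A and H2B genes, was strong in both lists. It spanned chr13:23683856-23684196 with 22 reads and the 92.1st percentile in the WT-labelled list, and chr13:23683829-23684210 with 28 reads and the 94.7th percentile in the KO-labelled list. It covered most of the Hist1h2ac promoter printed above, including its octamer, CCAAT boxes and TATA box. The fold enrichment over the local background was 3.14 in the former and 3.21 in the latter, which are close to each other.

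The peak between Hist1h2ag and Hist1h2bj was also found in both lists. It had 17 reads, a fold enrichment of 2.46 and the 40.1st percentile in the WT-labelled list, and 27 reads, a fold enrichment of 2.87 and the 90.4th percentile in the KO-labelled list. At Hist1h4a the overlapping peaks had 19 reads, a fold enrichment of 2.46 and the 48.9th percentile (WT-labelled) and 28 reads, a fold enrichment of 2.53 and the 82.2nd percentile (KO-labelled). At the latter the fold enrichments were close while the reads and percentiles were not, and reads and percentiles come from lists of unequal depth and length. At Hist1h2be, an H2B gene, the lists each had a peak, but not at the same place. The WT-labelled peak had 18 reads, the 56.8th percentile and its centre 186 bp into the gene. The strongest KO-labelled peak had 27 reads, the 93.4th percentile and its centre at -574 bp, upstream of the gene.

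Among the 3 genes found in the WT-labelled list only, Hist1h2bf and Hist1h2ad shared 1 peak of 16 reads at the 23.3rd percentile, and Hist1h4c had a peak of 19 reads at the 70.8th. Hist1h2bf and Hist1h2ad are an H2B and an H2A gene transcribed away from each other, with 185 bp between their starts. Their shared peak was the weakest of the 7, and its −log10 q of 0.904 was below the value of 1.3 that corresponds to a q of 0.05.

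The 24 genes with a peak in the KO-labelled list only came from every histone type and from all 4 clusters. Hist4h4 was among them although a stronger WT-labelled peak lay just outside its 1 kb window, as given below. So was Hist1h3a, although its peak overlapped a WT-labelled peak whose centre lay outside the window, at 1115 bp. The strongest peak of any member lay at chr13:23746279-23746726, with 33 reads at its summit, a fold enrichment of 3.76, a −log10 p of 11.1, a −log10 q of 7.12 and the 97.9th percentile. It covered the promoter of Hist1h2bb, an H2B gene, up to 8 bp before its TSS, with the octamer and 3 CCAAT boxes printed above. The H3 gene Hist1h3c, whose TSS is 901 bp from the centre of this peak, was counted with the same peak by the 1 kb rule, although no peak reached into its own promoter window. None of the 100-base stretches around these 2 starts recurred elsewhere in the genome, and the WT-labelled list had no peak there.

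Hist1h4h followed among genes with a peak in that list only, with 28 reads, the 93.9th percentile and its centre 3 bp from the TSS. The linker histone gene Hist1h1e shared with Hist1h2be the peak at the 93.4th percentile, which lay over the Hist1h1e gene 860 bp downstream of its start. Hist1h1c, another linker histone gene, had 2 peaks, one of 24 reads at the start (84.3rd percentile, centre 55 bp into the gene) and one of 26 reads at 895 bp (91.4th percentile). Hist1h2ah and Hist1h2bk, a divergent H2A and H2B pair, shared a peak of 25 reads at the 88.6th percentile. Hist1h1b had a peak of 24 reads (84.3rd percentile) 948 bp from its start, and Hist1h1a one of 25 reads (61.4th percentile) 423 bp into the gene.

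Hist1h2ai and Hist1h3h shared a peak of 24 reads at the 82.8th percentile in the KO-labelled list, Hist1h3a was counted with the Hist1h4a peak, and Hist1h3e had a peak of 22 reads at the 69.3rd percentile. Hist2h2bb, an H2B gene of the second cluster, had a peak of 23 reads at the 78.0th percentile. The remaining genes of this group had peaks in the lower part of the ranking. Hist2h2be and Hist2h2ac reached the 52.2nd percentile with a shared peak of 23 reads, Hist3h2a the 38.8th and Hist2h2aa1 the 35.5th. Hist1h2ak and Hist1h2bn shared a peak at the 29.2nd percentile, as did Hist1h2bh and Hist1h3f, Hist2h2ab was at the 23.8th and Hist4h4 at the 22.8th. A −log10 q of at least 1.3 was reached by 19 of the 25 peaks of the KO-labelled list and by 5 of the 7 of the WT-labelled list, near the shares of all promoter peaks, 78.7% and 66.1%.

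By histone type, the WT-labelled list had promoter peaks at 0 of 6 H1, 3 of 18 H2A, 4 of 18 H2B, 0 of 12 H3 and 3 of 13 H4 genes. In the KO-labelled list these were 4 of 6, 9 of 18, 9 of 18, 5 of 12 and 4 of 13. The H4 genes had the lowest share in the KO-labelled list (30.8%, interval 9.09 to 61.4%), but its interval overlapped that of every other type, and it included the share of all protein-coding genes. In the WT-labelled list the intervals of H1 (up to 45.9%), H2A (up to 41.4%), H2B (up to 47.6%) and H3 (up to 26.5%) lay below the share of all genes, and that of H4 (5.04 to 53.8%) included it.

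**Figure D2:**
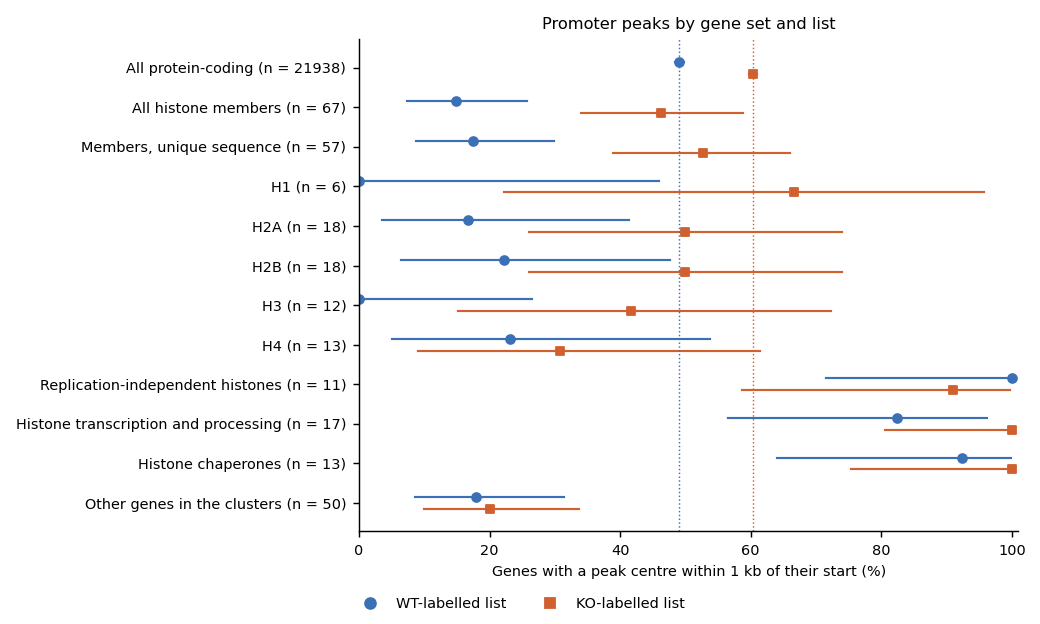
Share of genes with a peak centre within 1 kb of their start, in percent, with 95% exact binomial intervals (bars), for the WT-labelled list (blue circles) and the KO-labelled list (orange squares). Dotted lines mark the shares over all protein-coding genes, 49% and 60.4%. The shares over all histone members lie below both, while the 3 lists of histone-related genes lie above them. By type, H1 in the KO-labelled list lies above its line, at 4 of 6 genes (66.7%), but its interval (22.3 to 95.7%) spans that line.

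Without a promoter peak in either list were 2 H1, 8 H2A, 8 H2B, 7 H3 and 8 H4 genes. These were the H1 genes Hist1h1d and Hist1h1t, the H2A genes Hist2h2aa2, Hist1h2an, Hist1h2ao, Hist1h2ap, Hist1h2af, Hist1h2ae, Hist1h2ab and Hist1h2aa, and the H2B genes Hist3h2ba, Hist1h2bl, Hist1h2bm, Hist1h2bp, Hist1h2bq, Hist1h2br, Hist1h2bg and Hist1h2ba. The H3 genes were Hist2h3c2, Hist2h3c1, Hist2h3b, Hist1h3i, Hist1h3g, Hist1h3d and Hist1h3b, and the H4 genes were Hist1h4j, Hist1h4k, Hist1h4m, Hist1h4n, Hist1h4i, Hist1h4f, Hist1h4d and Hist1h4b. All 3 testis genes were among them. At the edge of the 1 kb window, Hist1h2bh was counted with a peak centre at 995 bp and Hist1h3a at 963 bp in the KO-labelled list, while Hist1h2bl at 1008 bp and Hist2h3b at 1080 bp were not. In the WT-labelled list the nearest peaks outside the window lay at 1091 bp (Hist4h4), 1115 bp (Hist1h3a) and 1121 bp (Hist1h2an). They were at the 93.4th, 48.9th and 40.1st percentiles, respectively.

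Some histone genes are near-identical copies, to which reads may not be assigned uniquely. For each gene, the share of 100-base stretches within 250 bp of its start that recurred exactly elsewhere in the genome was counted. The paper states paired-end reads longer than these stretches, so a read pair may have a unique place where a stretch does not. It was above 50% for 10 genes: 100% for Hist1h2ao, Hist1h2ap, Hist1h2bq and Hist1h2br, 75.1% for Hist1h4m, Hist1h4n, Hist2h2aa2, Hist2h3c1 and Hist2h3c2, and 64.9% for Hist2h2aa1. Of these only Hist2h2aa1 had a promoter peak, in the KO-labelled list. Among the other 57 genes, 10 (17.5%, interval 8.75 to 29.9%) had one in the WT-labelled list, against 49% of all protein-coding genes. In the KO-labelled list 30 had one (52.6%, interval 39.0 to 66%), of which 23 were in that list only. The latter interval included the share of all genes, 60.4%. Among the 22 genes with no recurring stretch, the counts were 2 (9.09%, interval 1.12 to 29.2%) and 14 (63.6%, interval 40.7 to 82.8%), and the latter interval also included 60.4%. The shares of all protein-coding genes were not filtered for recurring sequence, so these sets are not alike. The part of recurring sequence in the shares over all members was not tested. How the authors treated reads with several matches is not given in the sources used here.

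Within the Hist1 cluster the counts were taken by block. The first block, of 18 genes from Hist1h2bl to Hist1h2br over 118 kb, had promoter peaks at 0 genes in the WT-labelled list and at 5 in the KO-labelled list, and 6 of its 18 genes are among the copies of recurring sequence. The second, of 5 genes over 7.65 kb, had them at 2 and 4 genes. The third, of 29 genes over 233 kb, had them at 7 and 14 genes. The intervals of these 3 shares overlapped within each list, from 9.69 to 53.5%, 28.4 to 99.5% and 29.4 to 67.5% in the KO-labelled list, and no difference between blocks was tested. The Hist2 cluster had them at 1 and 6 of 10 genes, Hist3 at 0 and 1 of 2, and Hist4h4 only in the KO-labelled list. That Hist4h4 peak was at the 22.8th percentile of its list. A WT-labelled peak at the 93.4th percentile lay 1091 bp from a TSS of the gene, just outside the window.

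**Figure D3:**
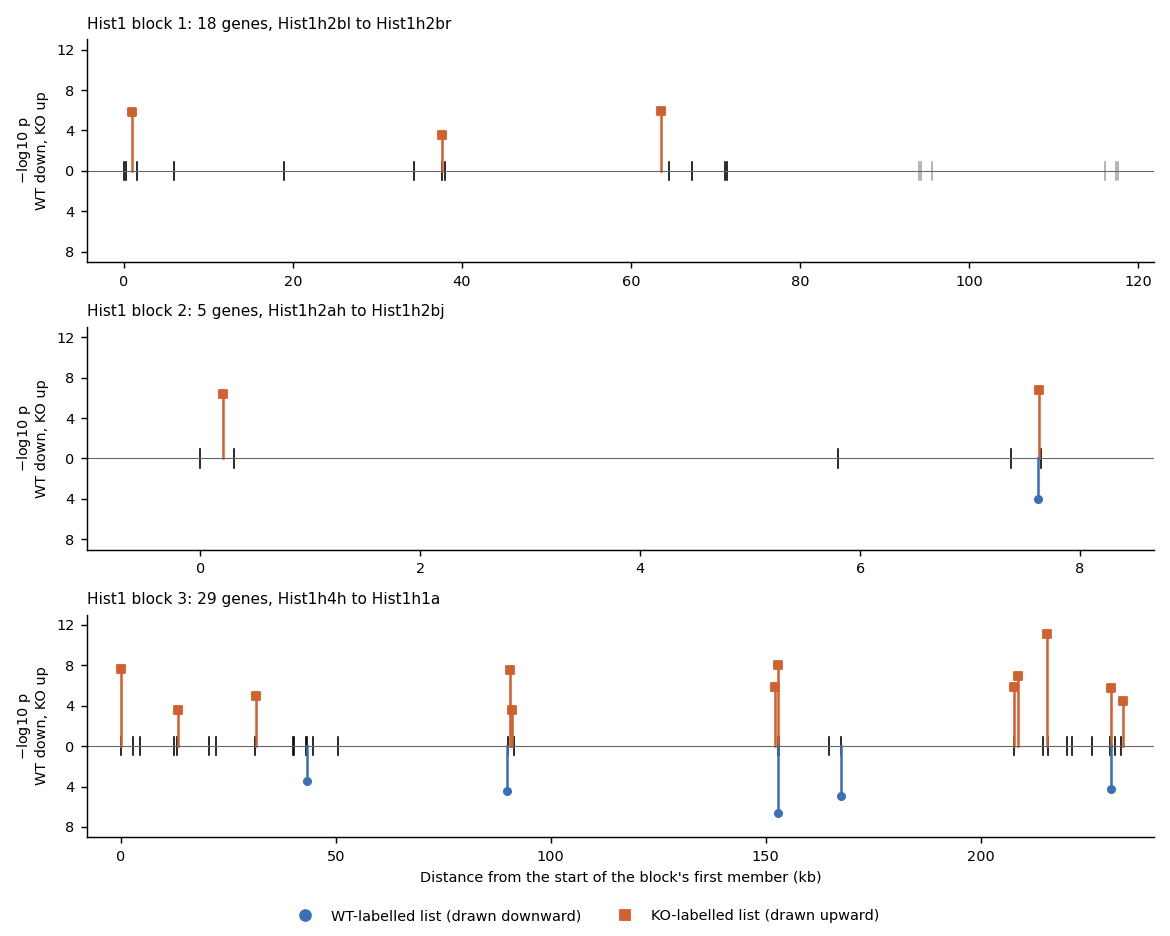
Histone promoter peaks along the 3 larger blocks of the Hist1 cluster, by distance in kb from the start of the first gene of each block. Vertical ticks are gene starts (grey where the sequence recurs), and stems give the −log10 p of each peak, upward for the KO-labelled list and downward for the WT-labelled list, with the highest stem, 11.1, at Hist1h2bb.

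Between the first and last histone gene of the Hist1 cluster the lists held 48 (WT-labelled) and 55 (KO-labelled) peaks of any kind, or 21.6 and 24.8 per Mb, against 28.5 and 36.8 per Mb in the genome. That span of 2218 kb includes the gaps between the blocks. Within the blocks the densities were 17.0 and 34.0 per Mb in the first, 131 and 262 in the second and 38.7 and 77.4 in the third. They came from few peaks: 2 and 4 in the first, 1 and 2 in the second and 9 and 18 in the third. In the Hist2 cluster the densities were 80.2 and 180 per Mb, from 4 and 9 peaks over 49.9 kb. The 50 other protein-coding genes between the histone genes, of which 36 are vomeronasal or olfactory receptor genes, had promoter peaks at 9 (18.0%, interval 8.58 to 31.4%) and 10 (20%, interval 10.0 to 33.7%) genes. Those of the zinc finger genes Zfp184 and Zfp322a were in both lists, at the 81.0th and 9.68th percentile in the WT-labelled list and at the 95.4th and 98.7th in the KO-labelled list. Of the 14 neighbours with a peak in either list, 5 had it in both, 5 in the KO-labelled list only and 4 in the WT-labelled list only, where the histone genes had 7, 24 and 3, and this contrast was not tested.

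Few of the histone peaks of the KO-labelled list had a counterpart in the other. Of the 25, 4 overlapped a WT-labelled peak by at least 1 bp (16%, interval 4.54 to 36.1%), against 46.0% of its 18113 promoter peaks of all genes. Of the 7 histone peaks of the WT-labelled list, 4 overlapped a peak of the other list (57.1%, interval 18.4 to 90.1%), against 63.4% of 14057. The median percentile of the histone peaks was 78.0 in the KO-labelled list, where promoter peaks as a whole had 75.1, and 56.8 in the WT-labelled list, where they had 65.3. Fold enrichments ran from 2.06 to 3.76 and from 2.32 to 3.28, and summit reads from 19 to 33 and from 16 to 24, respectively.

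The position of the peaks against the genes was measured next. In the WT-labelled list all 7 peaks had their centre within 250 bp of the start of the nearest histone gene (interval 59.0 to 100%), with a median distance of 54.0 bp, against 59.7% and 175 bp for all promoter peaks. In the KO-labelled list 12 of 25 did (48.0%, interval 27.8 to 68.7%), with a median of 267 bp, against 61.2% and 167 bp. The intervals of both lists overlapped, and each included the share of all promoter peaks of its own list. Of these 25 peaks, 13 overlapped the window from 250 bases before to 50 after the start of a histone gene, 14 had their centre inside a histone gene, and 3 did neither. Inside the gene lay, for example, the peaks of Hist1h1a, Hist1h3f and Hist4h4 and the stronger of the 2 peaks of Hist1h1c. Counted by gene, a peak overlapped that window at 9 of 67 histone genes in the WT-labelled list (13.4%, interval 6.33 to 24%), against 28% of all protein-coding genes. In the KO-labelled list it did so at 18 (26.9%, interval 16.8 to 39.1%), against 41.4%. Among these 18 were 1 of 6 H1 and 1 of 12 H3 genes, 6 of 18 H2A, 7 of 18 H2B and 3 of 13 H4 genes, with overlapping intervals.

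**Figure D4:**
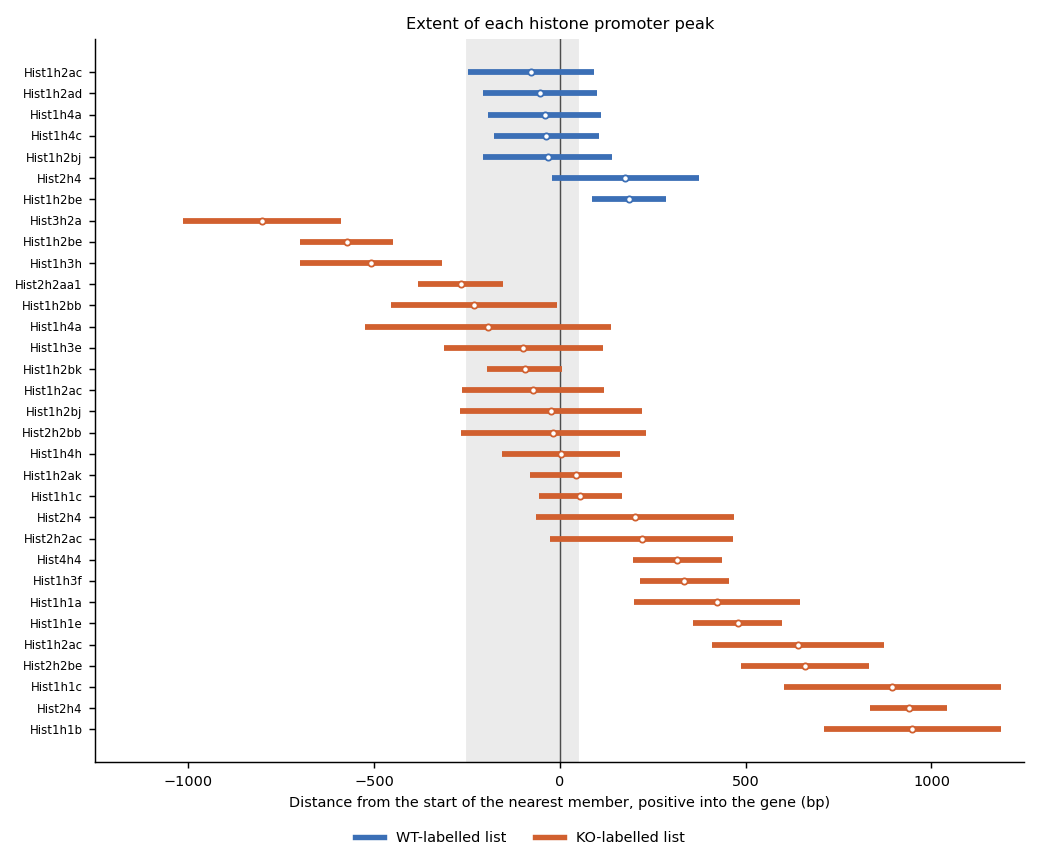
Extent of each of the 7 (WT-labelled, blue) and 25 (KO-labelled, orange) histone promoter peaks against the start of the nearest histone gene, in bp, positive into the gene. White points are peak centres and the grey band runs from 250 bp before to 50 bp after the start, and the orange peaks reach farther from the start in both directions than the blue ones.

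H2A and H2B genes are often transcribed away from each other from a shared stretch of DNA, and 12 such pairs had starts at most 500 bp apart. A peak overlapped the stretch between the starts in 3 pairs (25.0%, interval 5.49 to 57.2%) in the WT-labelled list and in 5 (41.7%, interval 15.2 to 72.3%) in the KO-labelled list. These were Hist1h2ac and Hist1h2bc and Hist1h2ag and Hist1h2bj in both lists, Hist1h2bf and Hist1h2ad in the WT-labelled list, and Hist1h2ah with Hist1h2bk, Hist1h2ak with Hist1h2bn and Hist2h2ac with Hist2h2be in the other. Among all 666 divergent protein-coding pairs at this distance the shares were 57.5% and 80.8%. Of the 6 pairs with no peak, 2 were the copies of recurring sequence Hist1h2bq with Hist1h2ao and Hist1h2ap with Hist1h2br, and 1 was the testis pair Hist1h2ba and Hist1h2aa.

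The other genes of histone supply had promoter peaks nearly throughout, against 49% (WT-labelled) and 60.4% (KO-labelled) of all protein-coding genes. The clustered genes had them at 14.9% and 46.3%, and this contrast was not tested. The 11 genes listed as replication-independent histone genes are not among the 67 members. All 11 had a promoter peak in the WT-labelled list (interval 71.5 to 100%). In the KO-labelled list 10 had one (interval 58.7 to 99.8%, which includes 60.4%). The exception was Cenpa, the histone H3 variant of centromeres, with a peak at the 31.1st percentile in the WT-labelled list only. H2afv reached the 97.3rd and 99.8th percentiles, H3f3a the 89.8th and 98.1st, and H3f3b the 93.7th and 96.4th (WT-labelled and KO-labelled, respectively). Others ranked low, such as H1f0, a linker histone gene, at the 31.5th and 35.2nd, and H2afj at the 76.3rd and 22.3rd. The median percentiles of the list were 76.3 and 95.3. Of 17 genes of histone gene transcription and pre-mRNA processing, 14 (interval 56.6 to 96.2%) and 17 (interval 80.5 to 100%) had a promoter peak. Among them were Npat, at the 96.5th and 99.2nd percentiles, Hinfp, which encodes the factor of the H4 element, at the 99.7th and 99.1st, Lsm11, a U7 snRNP subunit, at the 75.1st and 94.1st, and Slbp at the 84.6th and 99.1st. Over this list the percentiles ran from 0.0767 (Sympk) to 99.7 in the WT-labelled list, with a median of 87.0, and from 1.3 (Cstf2) to 99.5 in the KO-labelled list, with a median of 98.1. Eri1, which trims histone mRNA ends, was at the 81.0th and 15.8th. Of 13 histone chaperone genes, 12 (interval 64.0 to 99.8%) and 13 (interval 75.3 to 100%) had one. Asf1a, a chaperone of H3 and H4, was at the 96.5th and 96.8th percentiles. Atrx was the lowest of this list in both, at the 56.8th and 44.0th.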

How the data were processed

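Tissue of pooled mice was used for 1 ATAC-seq library per genotype, and samples were grouped by the genotype in the labels. For each library separately, the authors removed adapters and low-quality bases, aligned the reads by BWA-MEM and ran MACS2. The submitters' processing notes name FastQC, BWA, MACS2, HOMER and mm10. The MACS2 version and options are not given in the sources used here. The deposited score is the −log10 p scaled up, and it was left aside. The deposited fold enrichment is a ratio of summit reads to local background, with 1 added to each. The deposited −log10 p and −log10 q served to order and select peaks inside one list.

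Peaks on unplaced sequences (230 WT-labelled and 237 KO-labelled) were left out. Promoter peaks had their centre within 1 kb of any GENCODE vM21 TSS of a gene. Reads and background at a summit were solved from the fold enrichment and −log10 p, and a whole read number met the −log10 p, within 0.01 plus 0.1% of its value, for 100% of peaks, and the script was tested on simulated data. Shares have exact binomial (Clopper-Pearson) 95% intervals. With 1 library per genotype no test was made. Histone genes and gene lists were chosen with earlier results of these data known. Named genes are the strongest peaks per list, the genes with a peak in 1 list only or in neither, testis genes, copies of recurring sequence and, in the other lists, examples chosen after their values were seen. The alternatives tried were other windows, q thresholds, equal peak numbers, other start sites, summits, stricter overlaps and leaving out recurring genes. Python 3.11.15, numpy 2.4.6, pandas 2.3.3, scipy 1.17.1 and matplotlib 3.10.9 were used.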

Additional observations from a re-analysis of the deposited data

How the results depend on the processing

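Of 57 alternative values, 47 stayed within 1.5 times the reported count or within the interval of the reported share, and 10 moved. With a window of 3 kb, 24 histone genes had a peak in the WT-labelled list (35.8%, against 59.1% of all protein-coding genes). In that list only, 10 had one (14.9%, against 6.10%), a share above that of all genes. With a −log10 q of at least 1.3, these counts were 6 (8.96%, against 37.7%) and 1 (1.49%, against 5.02%). Raised to 5, this threshold left 0 and 0, the KO-labelled list had a peak at 2 genes, Hist1h2bb and Hist1h3c, 2 in that list only and 2 ranking higher in it, and 0% of its histone peaks overlapped a WT-labelled peak. At that threshold 3.93% and 17.0% of all protein-coding genes had a promoter peak (WT-labelled and KO-labelled). With the same number of strongest peaks from each list, the counts of histone genes were 10 and 31, as reported. With a window of 500 bp, 10 (14.9%, against 43.6% of all genes) and 22 (32.8%, against 55.5%) histone genes had a peak. In the KO-labelled list only, 16 had one (23.9%, against 17.4% of all genes). At a −log10 q of 5, that share was 2.99% against 13.9%, the opposite order to the reported 35.8% against 17.0%. No paired analysis was possible because each genotype had 1 library.

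Without read counts, the absence of a peak does not show that a site was closed. Few summit reads, 1 library per genotype, the unresolved peak names, unequal depth and recurring sequence limit every comparison between the lists.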
